A study of Mus musculus with 9 samples.

Results

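The genes described here drive a cell through division: 53 listed genes of cell cycle entry, DNA replication and mitosis, measured in the centre of the mouse cornea. A gene counted as measured where a probe set (the group of array probes read out as 1 value) carried its symbol and no other symbol in the platform annotation. By that rule 52 of the 53 genes had at least 1 of 127 probe sets, out of 18193 genes with a probe set in the whole series. Where a gene had several, the brightest by its mean across arrays stood for it. The list held 6 genes of G1 and S entry, 13 of replication and 34 of mitosis. Ccnb1, the mitotic cyclin B1, had no probe set with that single symbol and is only named. Tyms, thymidylate synthase, read 4.94 to 8.08 on the 9 arrays, near the lower end of the scale, and was not tested, so 51 genes were tested (6, 12 and 33 by role) among 10956 genes of the series.

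The study measured RNA of the central cornea in 3 inbred strains that differ in corneal thickness, which it describes as inherited. Per the labels, C57BLKS/J (KS) has a thin and SJL/J (SJL) a thick cornea, while no thickness is given for C57Bl/6J (B6). All mice were adult males, 4 months old, with no treatment or engineered allele in the labels, on the same diet and light-dark cycle. RNA of 1 array came from 2-mm central punches of both eyes of a single mouse, pooled, with 3 mice in each strain and 9 in all. A punch holds epithelium, stroma and endothelium together. The sources used here do not give the hour of collection.

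In a dividing cell, D-type cyclins and E2F factors start entry into S phase. MCM proteins, loaded with the help of Cdc6, then unwind DNA at replication origins. Later, Cdk1 with cyclins A2 and B, the Aurora and Polo-like kinases, kinesin motors and the spindle checkpoint carry the cell through mitosis. In the cornea, dividing cells lie mainly in the basal layer of the epithelium, which is renewed throughout life, while keratocytes and endothelial cells of adult mice rarely divide. The late genes are held down in resting cells through the CHR element (TTTGAA) and switched on with the help of CCAAT boxes, which bind the activator NF-Y, while many replication genes carry E2F sites.

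Promoters of both kinds of gene are shown because the shares of TTTGAA and of E2F sites differed between mitotic and replication genes, with exceptions. Every promoter shown holds a motif of its group, which not all genes of a group do. In Cenpa, Cenpf, Bub1b and Racgap1, for example, TTTGAA lies only after the start, where no bases are shown. Each line holds the 150 bases before an annotated start site, 5′ to 3′ on the gene's strand, from RefSeq on GRCm38.p6. Capitals mark CHR (TTTGAA, or TTCAAA on the opposite strand), CCAAT (or ATTGG) and the E2F motifs TTCCCGC and TTGGCGC (or GCGGGAA and GCGCCAA). Kif11 lies at chr19:37376232-37376381 on the plus strand and Prc1, the later of its 2 annotated starts, at chr7:80294326-80294475 on the plus strand. Top2a lies at chr11:99024190-99024339 on the minus strand. Of the replication genes, Mcm6 lies at chr1:128359706-128359855 on the minus strand and Mcm5 at chr8:75109359-75109508 on the plus strand.
Kif11: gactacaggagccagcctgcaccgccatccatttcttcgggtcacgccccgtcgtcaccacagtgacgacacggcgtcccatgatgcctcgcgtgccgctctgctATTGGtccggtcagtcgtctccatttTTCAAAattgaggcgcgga
Prc1: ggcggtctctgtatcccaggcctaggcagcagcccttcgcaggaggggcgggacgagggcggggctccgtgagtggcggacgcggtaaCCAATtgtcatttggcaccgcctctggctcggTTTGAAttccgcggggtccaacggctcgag
Top2a: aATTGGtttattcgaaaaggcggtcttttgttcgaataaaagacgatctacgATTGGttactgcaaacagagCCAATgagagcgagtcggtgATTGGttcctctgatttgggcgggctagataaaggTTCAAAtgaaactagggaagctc
Mcm6: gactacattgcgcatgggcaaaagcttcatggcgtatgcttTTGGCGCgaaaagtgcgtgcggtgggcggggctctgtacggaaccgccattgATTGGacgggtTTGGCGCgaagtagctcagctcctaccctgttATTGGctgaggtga
Mcm5: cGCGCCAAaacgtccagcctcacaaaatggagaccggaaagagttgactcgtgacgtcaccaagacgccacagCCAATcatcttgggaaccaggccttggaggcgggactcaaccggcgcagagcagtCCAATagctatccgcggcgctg

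Motifs were searched on both strands from 250 bases before to 50 after each start. TTTGAA was found in 22 of the 29 listed mitotic genes with a promoter entry (75.9%), in 2 of 12 replication genes and in 0 of 3 genes of G1 and S entry, against 20.2% of the 27025 genes in the table. TTTGAA together with CCAAT was found in 20 of 29 mitotic genes (69.0%), 2 of 12 replication genes and 7.97% of all genes. The E2F motifs were found in 6 of 12 replication genes (50%), in 4 of 29 mitotic genes (13.8%) and in 7.79% of all genes. CCAAT alone was in 24 mitotic and 9 replication genes (82.8% and 75%), against 41.1% of all genes, so it was common in both groups. A motif match describes letters, not a bound site.

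The mean level of mitotic genes was lowest in SJL, while that of replication genes overlapped between strains. The mean log2(intensity + 10) of the 33 tested mitotic genes was 8.60, 9.16 and 9.44 on the 3 B6 arrays, 8.77, 8.69 and 8.83 on the KS arrays and 7.32, 8.65 and 7.94 on the SJL arrays. Every SJL array lay below every KS array, though SJL replicate 2 came close to KS replicate 2 and was above B6 replicate 1. For the 12 replication genes the same mean was 10.27, 9.51 and 10.08 in B6, 9.68, 9.47 and 9.48 in KS and 9.18, 10.13 and 9.76 in SJL, and the strains overlapped. In whole-punch RNA, fewer dividing cells and less RNA per dividing cell cannot be told apart.

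**Figure D1:**
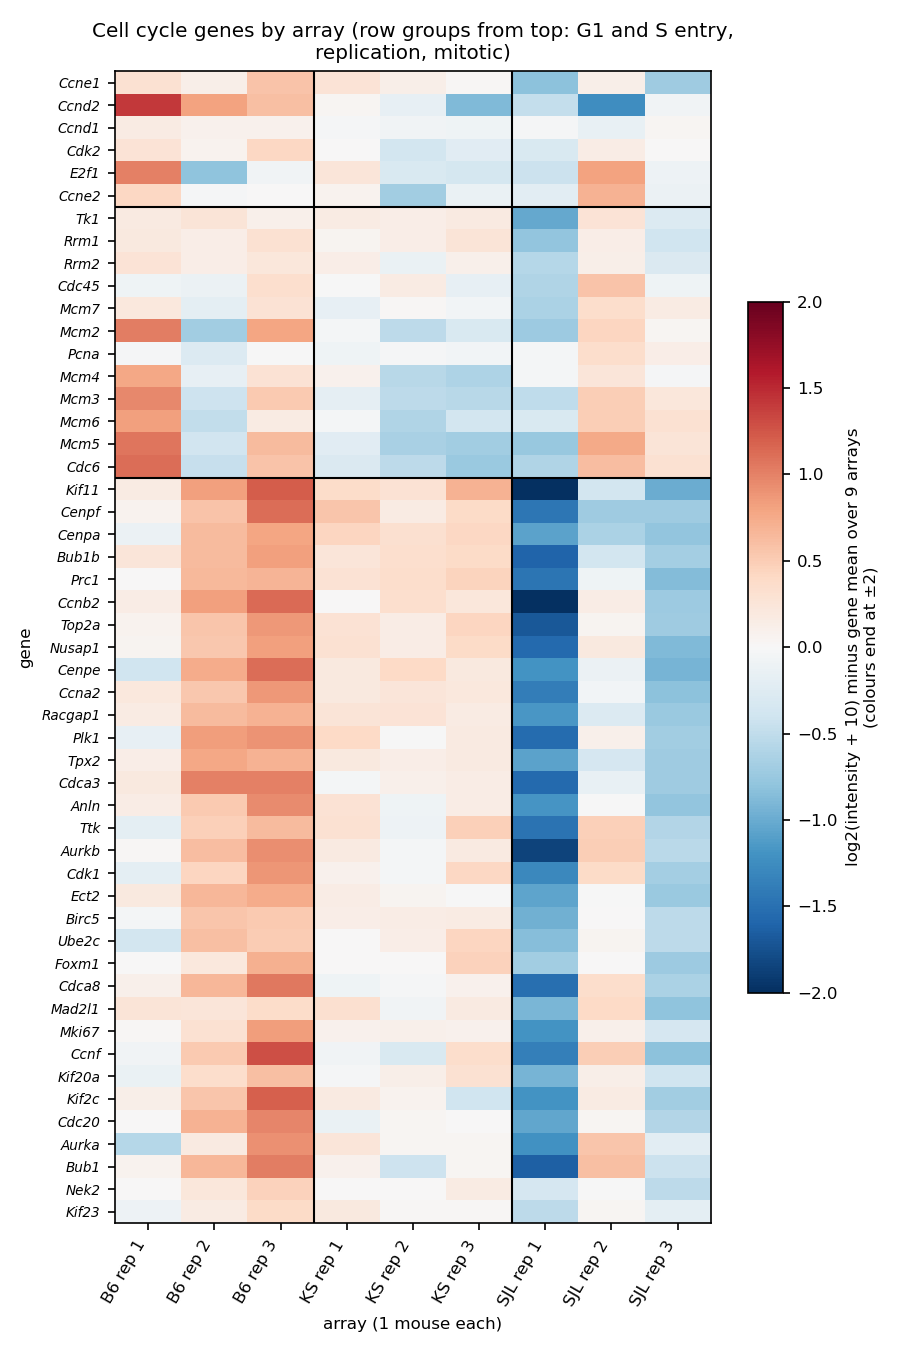
Log2(intensity + 10) of each of the 51 tested genes on each of the 9 arrays, minus the gene's mean over the arrays, ordered by role. Mitotic genes are lowest on SJL replicate 1 and highest on B6 replicate 3, while MCM genes are also high on B6 replicate 1; colours end at ±2.

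Mitotic genes ranked the mice of B6 and of SJL alike from gene to gene, and in B6 the replication genes gave another order. Among B6 mice, replicate 1 had the lowest value of 32 of 33 mitotic genes, but the highest of 7 of 12 replication genes. B6 replicate 2 was the lowest of its strain for 11 of 12 replication genes, and B6 replicate 3 the highest for 29 of 33 mitotic genes. In SJL both groups ran the same way. SJL replicate 2 had the highest value of all 33 mitotic and all 12 replication genes, and replicate 1 the lowest of 31 and 12. KS mice showed no such order, with the highest mitotic value on replicates 1, 2 and 3 in 12, 6 and 15 genes. The mean log2 level of all 10956 genes tested had the same SJL order, over a narrower range (9.16, 9.25 and 9.21). In B6 it was 9.20, 9.17 and 9.28, also highest on replicate 3. The share of all genes that gave each of these orders was not counted.

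The gap between replication and mitotic means put this into 1 value per mouse. Replication minus mitotic, as a difference of mean log2 levels, was 1.67, 0.35 and 0.64 in B6, 0.91, 0.78 and 0.65 in KS and 1.86, 1.48 and 1.81 in SJL. SJL lay above all KS mice, and B6 replicate 1 lay inside the SJL range. The absolute gap depends on which probes were used, so only its differences between mice carry meaning. The same difference for the further replication and mitotic genes of the pathway lists, with no listed gene among them, was 0.88, 0.23 and 0.31 in B6, 0.58, 0.62 and 0.50 in KS and 1.27, 1.04 and 1.31 in SJL.

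**Figure D2:**
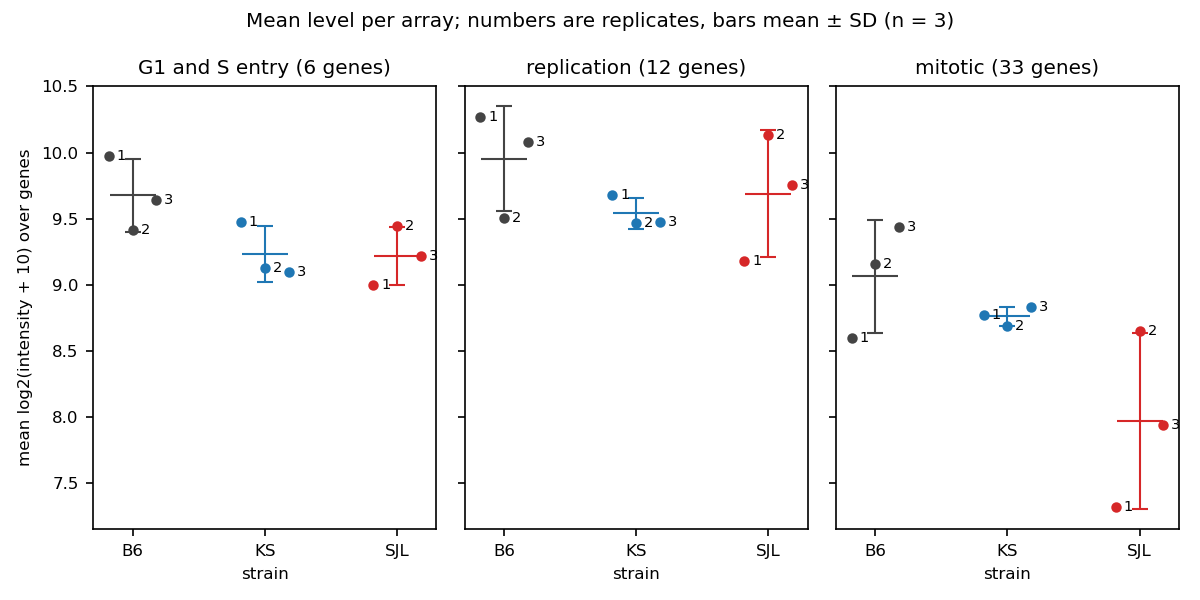
Mean log2(intensity + 10) of the tested genes of each role group on each array; numbers beside the points are replicate numbers, and horizontal marks with error bars are the mean ± SD of 3 arrays. The mitotic mean fell from 9.06 in B6 and 8.76 in KS to 7.97 in SJL, and the replication means are 9.95, 9.54 and 9.69.

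For mitotic genes the spread between mice of a strain was wide in B6 and SJL, and in KS it was close to that of all genes. The ratio of the highest to the lowest mouse had a median over the mitotic genes of 1.89 (B6), 1.17 (KS) and 2.54 (SJL), against 1.23, 1.16 and 1.27 over all 10956 genes tested. More than 2-fold ratios were seen in 25 of 33 mitotic genes in SJL (75.8%, against 6.88% of all genes), 8 in B6 (24.2%, against 6.12%) and 0 in KS (against 3.03%). For replication genes the median ratio was 1.67, 1.30 and 2.00 in B6, KS and SJL, and 5, 0 and 6 of 12 genes passed 2-fold. The widest was Aurkb, the Aurora kinase of the chromosomal passenger complex, at 5.75-fold between SJL mice (56.8, 327 and 155). In B6 the widest were E2f1, an activator of S-phase genes, at 4.23-fold and Cdc6 at 3.40-fold. In KS, 5 mitotic genes (Mki67, Aurka, Aurkb, Cenpe and Kif23) had exactly the same deposited value on at least 2 arrays. Within B6 and within SJL this happened for 0. Only ties within a strain were counted, and arrays of different strains also shared values. Bub1b read 378.752 on B6 replicate 1 and KS replicate 1, and Rrm1 1061.73 on B6 replicate 2 and SJL replicate 2. The reason for the ties, and their part in the narrow KS spread, was not tested.

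Other measures that differed between mice are given beside this order, and their part in it was not tested. The 3′ minus 5′ difference of the Gapdh control probe sets, a measure of RNA integrity in log2 units, was 0.84, 0.73 and 1.55 in B6, 0.90, 0.87 and 0.93 in KS and 0.81, 1.17 and 0.92 in SJL. It was highest on B6 replicate 3 and SJL replicate 2, the arrays with the highest mitotic means of their strains. Clock genes also differed between mice of 1 strain. Arntl, the clock activator Bmal1, read 300, 1006 and 773 in B6, 236, 402 and 1023 in KS and 678, 796 and 384 in SJL. Per2, a clock repressor, read 917, 243 and 504, then 643, 442 and 227, then 588, 360 and 628. Dbp, a clock output factor, read 8012, 3860 and 6140, then 8026, 8218 and 4142, then 5563, 6862 and 10131, and Nr1d1, the repressor of Arntl, 1892, 1447 and 1663, then 2120, 2536 and 2001, then 1111, 1381 and 1919. In B6, Arntl was lowest and Per2 highest on replicate 1, and in SJL Arntl was highest and Per2 lowest on replicate 2. Other extremes did not follow the mitotic order. Arntl was highest on B6 replicate 2 and lowest on SJL replicate 3, where the mitotic means were neither the highest nor the lowest. In KS, Arntl ran from 236 to 1023, while the mitotic mean ran from 8.69 to 8.83. Retinal markers stood at a mean log2 level of 8.95 on KS replicate 3, against 3.93 to 4.05 on the other 8 arrays.

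The strains labelled with a thick and a thin cornea were compared first, as SJL against KS. Here 7 of 51 listed genes were called lower and 0 higher (limma with Benjamini-Hochberg adjustment over all probe sets tested, adjusted p under 0.05), all 7 of them mitotic. Over all genes tested 8.08% were called lower and 6.80% higher. The 7 were 21.2% of the 33 mitotic genes, and 16 mitotic genes had an unadjusted p under 0.05, as did 28.3% of all genes. All 33 mitotic differences lay below 0, with a median of -0.74 on the log2 scale against 0.02 over all genes, and in 13 of them the arrays of both strains did not overlap with SJL below (17.4% of all genes did so).

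Kif11, the spindle motor that pushes the poles apart, read 231, 219 and 293 on the KS arrays and 30.8, 135 and 84.6 on the SJL arrays, with B6 at 200, 320 and 424. The SJL mice lay below all others, and differed by up to 4.39-fold among themselves. Its means were 248 ± 39.8 in KS and 83.6 ± 52.3 in SJL (SD, n = 3), a log2 difference of -1.63 ± 0.44 (SE, limma adjusted p = 0.0393). The other tested probe sets of Kif11, at 13.9 to 57.1 and 9.84 to 41.0, differed by -0.62 each (limma adjusted p = 0.0634 and 0.0359). Cenpf, a kinetochore protein of late S phase and G2, read 318, 239 and 280 in KS and 71.9, 126 and 125 in SJL (-1.33, adjusted p = 0.0157). The second tested probe set of Cenpf, at 4.65 to 24.6, differed by -0.56 and was not called (limma adjusted p = 0.169). Cenpa, the histone H3 variant that marks centromeres, read 373, 345 and 367 in KS and 125, 173 and 154 in SJL. It was the most even of the 7 in SJL, and its difference of -1.22 ± 0.22 (limma adjusted p = 0.0071) alone among the 7 stayed called without each of the 9 arrays in turn. It was not called with the mean of its probe sets (adjusted p = 0.0625), and its second tested probe set, at 6.45 to 47.3, differed by -0.24 (limma adjusted p = 0.632).

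The spindle checkpoint kinase Bub1b read 379, 406 and 422 in KS and 99.2, 246 and 196 in SJL (-1.20, limma adjusted p = 0.0251). Its second probe set was also called lower (-1.81), and the other read 11.0 to 11.4 on all arrays. Prc1, which bundles the central spindle, read 1772, 1852 and 1973 in KS and 524, 1367 and 792 in SJL (-1.16, limma adjusted p = 0.0436). Racgap1, the partner of Kif23 in the centralspindlin complex, had means of 708 ± 30.3 in KS and 369 ± 118 in SJL (SD, n = 3), with a difference of -0.97 and a limma adjusted p of 0.0211. Tpx2, the activator of Aurka on spindle microtubules, had means of 643 ± 14.7 and 354 ± 93.3, with a difference of -0.87 and a limma adjusted p of 0.0275. In all 4 genes SJL replicate 2 was the nearest to the KS arrays. The second probe set of Prc1 was also called lower (-1.09, limma adjusted p = 0.0293). Those of Racgap1 (-0.59, limma adjusted p = 0.0919) and Tpx2 (-0.72, 0.226) were lower but not called. Tpx2 was not called with the mean of its probe sets either (limma adjusted p = 0.105).

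Widely used proliferation markers did not pass the test between these strains. Mki67, which coats mitotic chromosomes, read 1988, 2013 and 1988 in KS and 809, 1999 and 1489 in SJL (-0.57, limma adjusted p = 0.281), and SJL replicate 2 lay within the KS range. Top2a, the topoisomerase that untangles sister DNA, read 1177, 1070 and 1310 in KS and 292, 998 and 589 in SJL (-1.07, adjusted p = 0.110), with no overlap but a wide SJL spread. Cdk1, the kinase that drives mitotic entry, read 900, 821 and 1139 in KS and 342, 1114 and 526 in SJL (-0.68, adjusted p = 0.330). Birc5 (survivin), of the chromosomal passenger complex, had means of 3323 ± 40.3 in KS and 2213 ± 744 in SJL (SD, n = 3). Ube2c, a ubiquitin-conjugating enzyme of mitotic exit, had 2640 ± 397 and 1755 ± 582. The other mitotic differences ranged up to -0.31 for Kif23, the centralspindlin motor.

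Replication genes did not share this direction. By limma 0 of 12 were called in either direction between SJL and KS, with 1 at an unadjusted p under 0.05, and 4 of 12 differences lay below 0, with a median of 0.20. Cdc6, the loader of MCM rings, read 57.2, 46.7 and 38.8 in KS and 44.2, 116 and 90.9 in SJL, a difference of 0.63. Mcm5 read 605, 446 and 434 in KS and 416, 1200 and 847 in SJL, a difference of 0.61. In both genes SJL replicate 1 was near the KS level and the other SJL mice above it. Mcm4 read 2926, 1879 and 1798 in KS and 2679, 3254 and 2700 in SJL, a difference of 0.42, with KS replicate 1 apart from its strain. Pcna, the sliding clamp of DNA polymerases, read 5507, 5725 and 5628 in KS and 5688, 7484 and 6423 in SJL, with a difference of 0.21. Below 0 were Tk1 (thymidine kinase), with the lowest at -0.50, and Rrm1 and Rrm2, the subunits of ribonucleotide reductase, at -0.50 and -0.28, besides Cdc45 at -0.04.

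Among the genes of G1 and S entry 0 of 6 were called between SJL and KS by limma, and the median difference was 0.08. Ccne1 (cyclin E1) had the lowest difference, -0.61, and Ccne2 (cyclin E2) the highest, 0.37. Ccnd1 (cyclin D1) read 10027, 9703 and 9638 in KS and 10093, 9274 and 10487 in SJL, the smallest spread of the entry genes in each strain. Its dimmest probe set read 521, 687 and 543 in KS and 727, 857 and 1000 in SJL (0.55, limma adjusted p = 0.0568). The other differed by 0.14 (limma adjusted p = 0.544). Cdk2, the kinase of the E cyclins, had means of 422 ± 56.7 in KS and 469 ± 75.5 in SJL (SD, n = 3), within their spread.

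**Figure D3:**
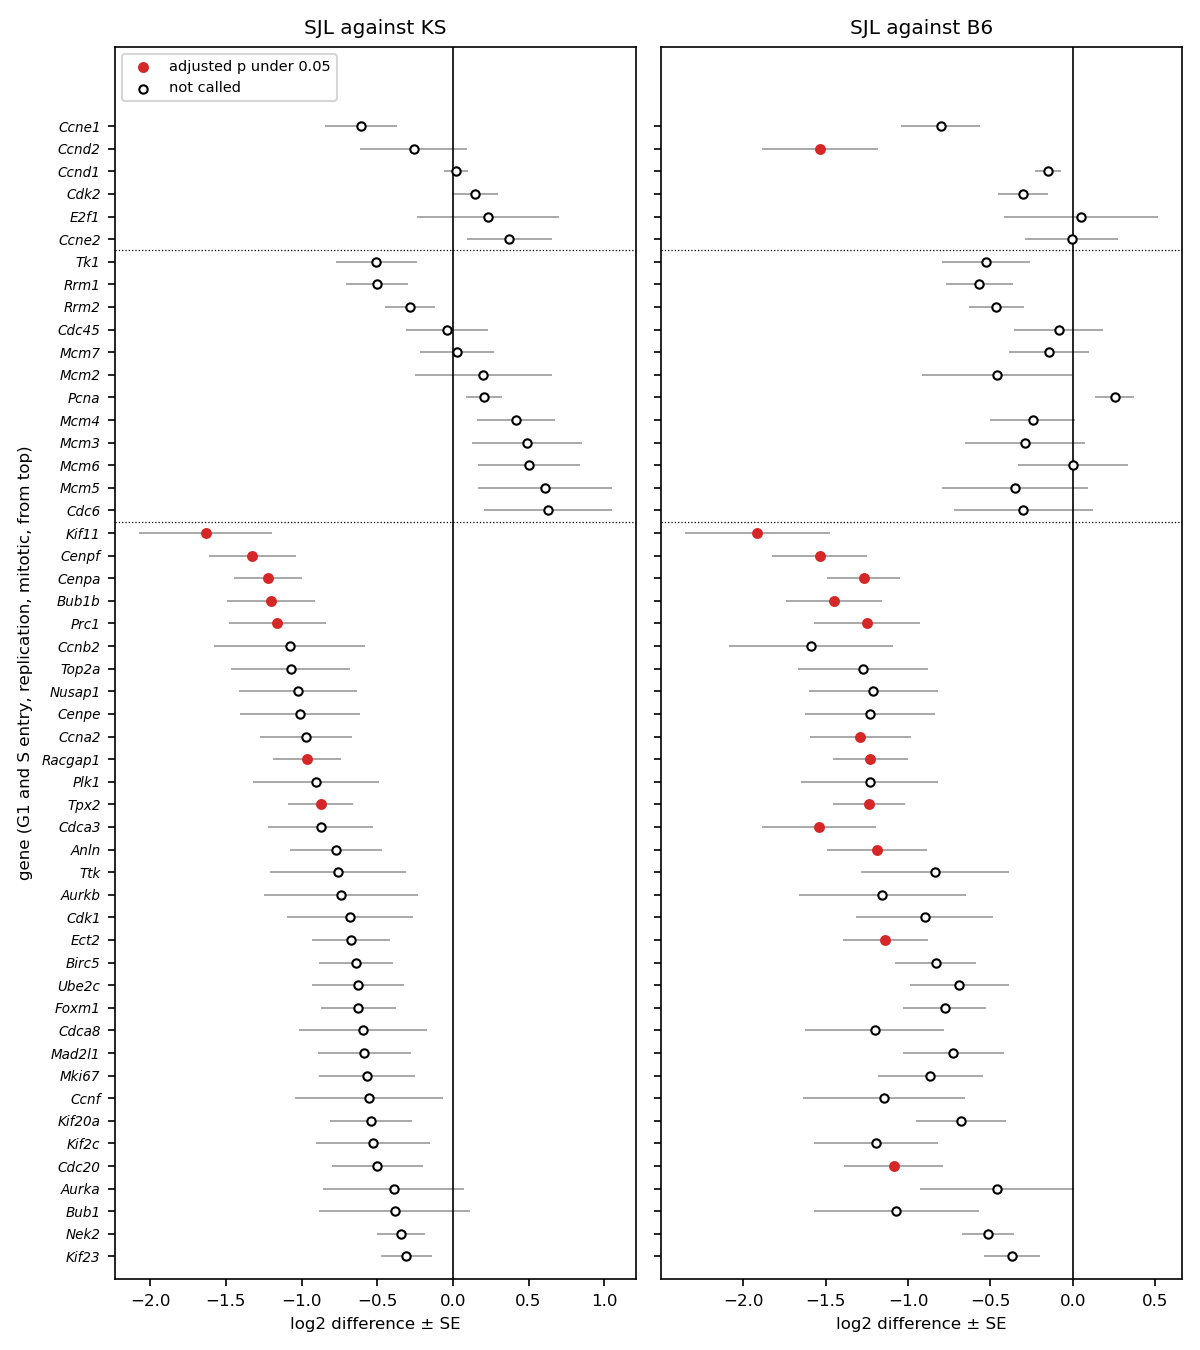
Log2 difference between strains of each tested gene with its standard error, by role, for SJL against KS (left) and SJL against B6 (right); filled points are called. All mitotic genes lie below 0, with medians of -0.74 on the left and -1.19 on the right, while the replication medians are 0.20 and -0.29.

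The count of 7 lower genes moved with single arrays. Leaving out KS replicate 1 or KS replicate 3 gave 1, KS replicate 2 or SJL replicate 3 gave 2, SJL replicate 1 gave 4 and SJL replicate 2 gave 20, while the count of higher genes was 0 each time. With probe sets of low level kept in the test it was 1, Cenpa.

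KS against B6 compared the thin cornea with the strain of unstated thickness. By limma 0 of 51 listed genes were called in either direction, against 3.40% of all genes called higher and 2.87% lower. At an unadjusted p under 0.05 there were 3 of 51, against 20.9% of all genes. All 33 mitotic differences lay below 0, but their median was -0.25 and 3 of them had arrays that did not overlap (13.4% of all genes were lower without overlap). The lowest was Bub1, a spindle checkpoint kinase, at 163, 251 and 322 in B6 and 163, 113 and 158 in KS (-0.69, limma adjusted p = 0.503). Of the 12 replication differences 11 lay below 0, with a median of -0.34. Mcm5 read 1496, 540 and 1100 in B6 against 605, 446 and 434 in KS (-0.96, adjusted p = 0.285), and Cdc6 168, 49.5 and 112 against 57.2, 46.7 and 38.8 (-0.93, adjusted p = 0.277). B6 replicate 2 was near the KS mice in both, as it was for Mcm2 of the MCM ring (866, 258 and 736 in B6, 408, 292 and 340 in KS and 250, 574 and 433 in SJL).

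SJL against B6 shares its SJL arrays with the first comparison and its B6 arrays with the second, so it is no separate support for either. In it 13 of 51 listed genes were called lower and 0 higher, against 7.68% and 8.39% of all genes, and 12 of the 13 were mitotic. All 33 mitotic differences lay below 0 with a median of -1.19, 26 had an unadjusted p under 0.05 (30% of all genes did), and in 14 the arrays did not overlap with SJL below (14.9% of all genes did so). The 7 genes described above had, in this comparison, differences of -1.91 for Kif11 (limma adjusted p = 0.0200), -1.54 for Cenpf (0.00756), -1.45 for Bub1b (0.0106), -1.27 for Cenpa (0.0057), -1.25 for Prc1 (0.0321), -1.24 for Tpx2 (0.00549) and -1.23 for Racgap1 (0.0068). Of these and the others within the naming rule, Cenpf, Bub1b, Cenpa, Tpx2 and Racgap1 stayed called without each array in turn. The second tested probe sets of Tpx2 (-0.79, limma adjusted p = 0.183) and Cenpf (-0.58, 0.156) were lower but not called. Those of Kif11, Bub1b, Cenpa, Prc1 and Racgap1 were called lower.

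Of the genes called in SJL against B6 and not against KS, Cdca3, a trigger of mitotic entry, read 1020, 1798 and 1789 in B6 and 296, 803 and 536 in SJL, with KS between at 864, 950 and 987 (-1.54, limma adjusted p = 0.0182). Ccna2 (cyclin A2) read 1396, 1752 and 2206 in B6, 1390, 1431 and 1393 in KS and 455, 1162 and 681 in SJL (-1.29, adjusted p = 0.0225). Its second probe set was lower but not called (-1.25, limma adjusted p = 0.0978). Anln (anillin), the scaffold of the cleavage furrow, and Ect2, a regulator of cytokinesis, had differences of -1.19 and -1.14 (limma adjusted p = 0.0312 and 0.0185). Cdc20, the activator of the anaphase-promoting complex, had -1.09 (0.0422) and was named after its values were seen. Its other probe sets were lower but not called (-1.15 and -0.71, limma adjusted p = 0.0940 and 0.0891). Whether a gene differed more from B6 than from KS was tested only as KS against B6, in which 0 of these genes were called.

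The 0 of 12 replication genes called here by limma (2 at an unadjusted p under 0.05) had a median of -0.29. The count of 13 was 35 without SJL replicate 2, 7 once SJL replicate 3 was left out, and 6 without B6 replicate 2 or B6 replicate 3. Tested for any difference among the strains, 11 of the 51 genes were called (10 mitotic and Ccnd2), a share close to the 19.4% of all genes. That count was 5 without B6 replicate 2 or KS replicate 2, 28 without SJL replicate 2, 6 without each of the others but B6 replicate 1, and 12 without B6 replicate 1.

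Ccnd2 (cyclin D2), which with Cdk4 or Cdk6 starts the path to S phase, was the 13th gene and the only one outside mitosis. It read 5977, 3940 and 3401 in B6, 2304, 2006 and 1209 in KS and 1612, 947 and 2130 in SJL. Every B6 mouse lay above every mouse of the other strains, and KS and SJL overlapped. Means were 4439 ± 1358, 1840 ± 566 and 1563 ± 593 (SD, n = 3), with SJL against B6 at -1.53 ± 0.35 (limma adjusted p = 0.0203) and KS against B6 at -1.28 (adjusted p = 0.0837). Of its 7 probe sets 6 were called lower in SJL than in B6 (the seventh at -1.30, adjusted p = 0.0966), and 1 was called lower in KS than in B6 (-1.76, adjusted p = 0.0434). The call of the brightest probe set was lost without B6 replicate 1 (limma adjusted p = 0.0681). The levels of Ccnd2 ran against the mitotic genes between mice of 1 strain, with a Pearson r of -0.67 to the mean mitotic deviation over the 9 arrays.

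Rrm2, the small subunit of ribonucleotide reductase, gave different answers from its probe sets. The brightest read 7240, 6567 and 7000 in B6, 6513, 5432 and 6426 in KS and 4011, 6442 and 4903 in SJL, with KS against B6 at -0.18 (limma adjusted p = 0.599). A second read 600, 529 and 702 in B6, 1688, 1647 and 2168 in KS and 979, 2332 and 1587 in SJL. It was called higher than B6 in KS (1.57) and in SJL (1.33, limma adjusted p = 0.0141 for both). The other, at 50.1 to 195, was called in neither. The cause of this disagreement was not tested, and the level of Rrm2 relative to B6 is uncertain here. Over all listed genes with further tested probe sets, Rrm2 included, 21 of 22 further probe sets of mitotic genes had the sign of the main one in SJL against KS, and 20 of 22 in SJL against B6. For replication genes it was 13 and 10 of 14, and for genes of G1 and S entry 10 and 8 of 10.

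**Figure D4:**
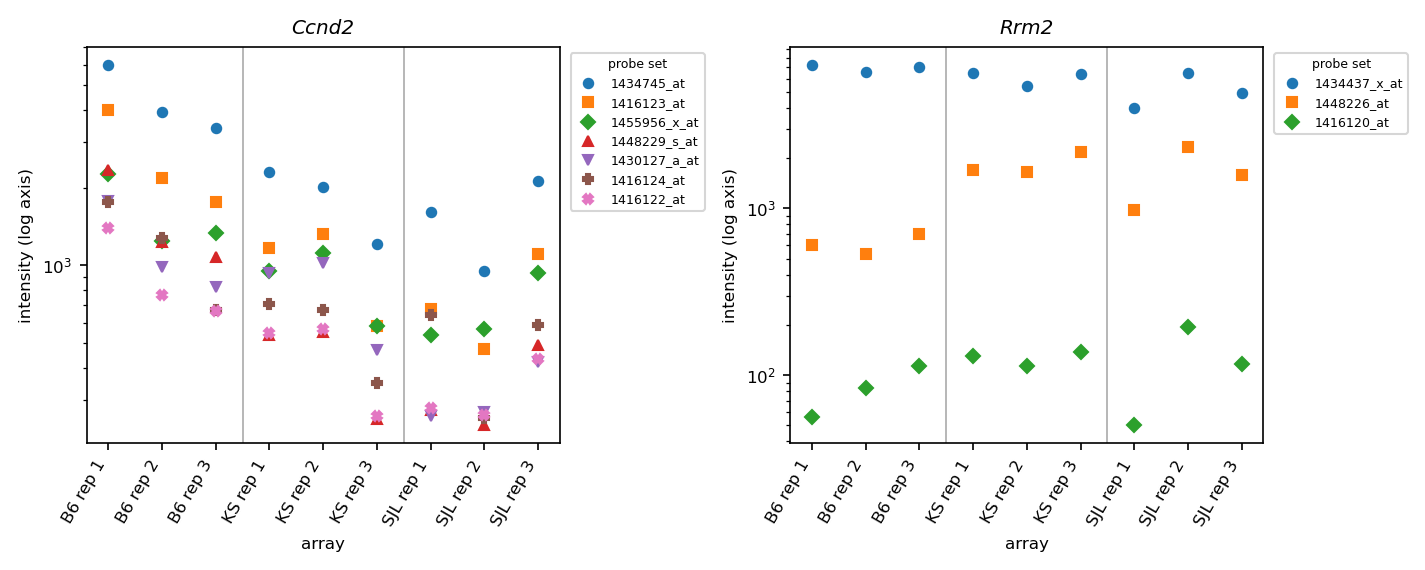
Intensity (log axis) of each tested probe set of Ccnd2 and Rrm2 on the 9 arrays, with 1 marker shape per probe set. All 7 Ccnd2 probe sets have higher means in B6 than in KS and SJL, while the Rrm2 probe sets disagree on the order of B6 and the other strains.

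The further genes of the pathway came from general lists of mitotic, replication and regulatory genes. Of 69 further mitotic genes tested, 7 were called lower and 0 higher in SJL against KS (median -0.44), or 10.1% against the 8.08% of all genes called lower. In SJL against B6 14 were lower and 0 higher (median -0.77), or 20.3% against 7.68%. The largest difference from KS was that of Pttg1 (securin, the inhibitor of separase), at 5947, 6567 and 6259 in B6, 6403, 7085 and 7559 in KS and 1568, 2499 and 1487 in SJL. Its SJL mice were close together and far below the rest, and the difference was -1.95 ± 0.19 against KS (limma adjusted p = 0.0002). Whether its probes match the SJL sequence was not tested, and the same holds for the other genes called lower in SJL. Nuf2 of the kinetochore NDC80 complex (-1.67, adjusted p = 0.0164), Arhgap11a, a regulator of cytokinesis (-1.50, 0.0282), and Bora, an activator of Plk1 (-1.12, 0.0128), were also lower against KS. Spc25, of the same kinetochore complex, was lower against B6 (-2.03, limma adjusted p = 0.0321). Pttg1 stayed called against KS in all 9 fits that left out 1 array, Bora in 8, Arhgap11a in 6 and Nuf2 in 5, and Spc25 against B6 in 3.

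Of 43 further replication genes, 2 were called higher and 1 lower in SJL against KS, and 1 was higher in each of the other comparisons. The share called in either direction was 6.98% in SJL against KS, below the 14.9% of all genes. It was 2.33% in each of the other comparisons, below 6.27% (KS against B6) and 16.1% (SJL against B6). Gins4, of the GINS helicase complex, read 520, 566 and 523 in KS and 681, 1152 and 995 in SJL (0.77, limma adjusted p = 0.0288), and was also higher against B6 (0.97). Uhrf1, which maintains DNA methylation at the fork, was higher in SJL than in KS by 0.63 (limma adjusted p = 0.0460). Against KS, Gins4 stayed called in 4 and Uhrf1 in 3 of the 9 fits that left out 1 array, neither was called with the replicate block (adjusted p = 0.0628 and 0.0856), and Uhrf1 was not called with the mean of its probe sets (0.123). Orc2, an origin subunit, was lower in SJL than in KS (-0.53) and higher in KS than in B6 (0.79), but with the mean of all its probe sets neither was called and the first changed sign.

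Of 33 brakes and RB, E2F and DREAM regulators, 4 were lower and 0 higher in SJL against KS, and 5 lower and 1 higher against B6, or 12.1% and 18.2% called, close to the 14.9% and 16.1% of all genes. Cdkn2c, the Cdk4 and Cdk6 inhibitor p18, read 671, 742 and 858 in KS and 223, 356 and 319 in SJL (-1.33, limma adjusted p = 0.00481). Cdkn1b, the Cdk2 inhibitor p27, differed by -0.48 against KS and -0.90 against B6 (limma adjusted p = 0.0464 and 0.00264). Ccng2, a cyclin of arrested cells, had -0.56 and Tfdp2, an E2F partner, -0.90 against KS (limma adjusted p = 0.0251 and 0.0164). E2f8, a repressor E2F, was lower in SJL than in B6 (-2.26, limma adjusted p = 0.0196). Against KS, Cdkn2c stayed called in all 9 fits that left out 1 array, Tfdp2 in 7, Ccng2 in 5 and Cdkn1b in 1, while against B6 Cdkn1b stayed called in all 9 and E2f8 in 6.

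Markers of the cells a punch can hold were read beside these groups, and their part in the mitotic difference was not tested. The 6 markers of basal epithelium, the layer that divides, had mean log2 levels of 12.80 to 12.92 in B6, 12.78 to 12.82 in KS and 13.00 to 13.08 in SJL, and 1 of the 6 was higher in SJL than in KS. Krt5, the keratin of that layer, read 19603, 19756 and 19684 as strain means of B6, KS and SJL. It does not stand for the 6 basal markers. Their differences between SJL and KS ran from -0.05 to 0.89, with 4 above 0 and 2 below. Against B6, 2 of the 6 were called higher in SJL. Of 7 limbal and conjunctival markers 3 were called lower and 0 higher in SJL than in KS. Of their differences 5 lay below 0 and 2 above, up to 0.46. In SJL against B6 4 were called lower and 1 higher, with differences from -7.21 to 1.87. The mean log2 level of the 7 markers was 9.40 to 9.78 in B6, 9.60 to 9.63 in KS and 7.65 to 8.38 in SJL. The mean of Krt15, a limbal and basal keratin, fell from 11551 ± 1938 (B6) and 8079 ± 1173 (KS) to 112 ± 124 (SJL), with SD and n = 3 (-6.70 against KS, limma adjusted p = 0.00047). Whether the probes of Krt15 match the SJL sequence was not tested, so its SJL value is uncertain. Without Krt15 the mean of the other 6 was 8.73 to 9.12 in B6, 9.04 to 9.10 in KS and 8.19 to 8.71 in SJL. Of 6 leukocyte markers tested 2 were higher and 1 lower in SJL than in KS, with mean log2 levels of 6.99 to 7.31, 7.09 to 7.49 and 7.24 to 7.52 in B6, KS and SJL, and Ptprc, which defines leukocytes, and Cd3e stood near the lower end of the scale. Of 6 keratocyte markers 1 was lower in SJL than in KS, with mean log2 levels of 11.85 to 12.01, 11.93 to 12.32 and 11.52 to 11.85 in the same order. Of 5 markers of differentiated corneal epithelium and 4 of endothelium 0 were called by limma (0 at an unadjusted p under 0.05 in each). The 1 lens marker tested, Bfsp1, was higher in SJL, with mean log2 levels of 6.27 against 5.08 in KS (limma adjusted p = 0.0243).

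Mitotic genes also shared their ups and downs between mice of 1 strain. After subtraction of each strain's mean, the Pearson r of a mitotic gene with the mean of the mitotic genes over the 9 arrays had a median of 0.97, from 0.75 (Nek2, a centrosome kinase) to 0.99 (Cdca8, borealin), and 25 of 33 exceeded 0.9. Each gene is part of that mean, and the 9 points share array, RNA quality and scaling. The SD of the mitotic mean was 0.43 in B6, 0.07 in KS and 0.66 in SJL, so B6 and SJL mice weigh most in r. The share of all genes tested with r above 0.9 was not counted, so the 25 genes do not show a trait particular to mitotic genes. Replication genes ran from -0.08 (Mcm4) to 0.87 (Cdc45, of the replicative helicase), with a median of 0.51. Within the replication group the MCM ring subunits Mcm2 to Mcm6 had r of 0.40 or below, the sixth subunit Mcm7 0.67, Rrm1 0.86 and Tk1 0.81. Ccnd1 stood at -0.72.

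The 10 genes outside the list that were most like the mitotic mean, out of all genes tested, had r from 0.985 to 0.997. They were 1810021B22Rik, Iqgap3, Dlgap5, Stmn1, Mtres1, Cenpn, Snord104, Atrip, 2310057M21Rik and Cep89, of which 4 (Iqgap3, Dlgap5, Stmn1 and Cenpn) were in the pathway lists. Dlgap5, a spindle protein, read 82.4, 128 and 146 in B6, 88.1, 87.8 and 97.1 in KS and 28.5, 88.1 and 52.5 in SJL. Likeness in deviation did not mean a like strain difference, since Mtres1 read 1333, 2313 and 1765 in SJL, against 1463, 1352 and 1551 in KS.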

How the data were processed

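RNA of 9 central cornea samples was read on Affymetrix arrays. The authors deposited 1 linear intensity per probe set and array, already summarised over probes; the sources used here do not give the method of summary or scaling. The upper quartile of an array was 379.6 to 396.3, and 54.6% of intensities lay below 16. The table held 45101 probe sets, 64 of them controls. Symbols came from the platform annotation, in which 34945 probe sets had 1 symbol, 932 several and 9160 none; a RefSeq table (GRCm38.p6) held 34741 of the 34945 and changed 0.

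Values were analysed as log2(intensity + 10), a scale on which changes of low genes come out too small. Probe sets below the median of mean log2 values were left out, leaving 22519. Strain means were fitted over all 9 arrays with limma 3.58.1 in R 4.3.3 (6 residual degrees of freedom, two-sided), with Benjamini-Hochberg adjustment over the probe sets tested; called means adjusted p under 0.05. With 3 arrays against 3 an exact permutation test cannot go below 0.1, so none is given; the number of arrays limits precision. Alternatives changed the filter, pseudocount, normalization, variance prior, array weights, replicate block, arrays in the fit, gene summary, and left out each array.

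The members and lists were chosen with earlier results of these data known, so no count of members is independent evidence. Named were called members (at most 12 per comparison, by size), in each role the 3 highest and the 2 with the largest difference, some fixed markers (Mki67, Top2a, Cdk1, Pcna, Mcm2, Rrm2, Ccnd1), at most 4 called genes per pathway list and comparison, the 10 most alike genes and 4 clock genes. Others were named after their values were seen. Promoter sequences were RefSeq entries; Ccnd1, Ccnd2, Ccne2, Mcm4, Foxm1, Ccna2, Aurkb, Tpx2 and Kif20a are named only.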

Additional observations from a re-analysis of the deposited data

How the results depend on the processing

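Counts of called members are given as SJL lower than KS, SJL lower than B6 and any difference, which were 7, 13 and 11. With no filter they were 1, 4 and 1, and in fits of only the 6 arrays compared the first and second were 4 and 6. With array weights they were 34, 33 and 38, with 5 higher in SJL than in KS, 1 higher in SJL than in B6 and 1 lower in KS than in B6; the weight estimation stopped before converging and gave SJL replicate 3 a weight of 8.28 and SJL replicate 2 one of 0.27. Leaving out 1 array at a time gave 1 to 20, 6 to 35 and 5 to 28, and 0 to 1 lower in KS than in B6 (Ccnd2 without SJL replicate 2). With the replicate number as a block they were 7, 16 and 13, with 0 for KS against B6. Over all probe sets tested, same-numbered arrays had correlations of deviations from -0.27 to 0.26 and others from -0.36 to 0.42. The numbers were therefore not taken to pair the mice. The highest correlation was that of B6 replicate 3 with SJL replicate 2, and the lowest that of B6 replicate 3 with SJL replicate 1. With a pseudocount of 50 the KS mean level was 9.71 for replication and 8.99 for mitotic genes (9.54 and 8.76 before). Orc2 in SJL against KS turned to 0.19 with the mean of all probe sets (adjusted p = 0.379). In the other settings these counts stayed within 1.5 times. Of the members named by the rule, 1 of 7 calls against KS and 5 of 12 against B6 held without each array, and 0 of 7 and 4 of 12 in every other setting too. The number of arrays and low signal limit what could be detected.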
